A study of Mus musculus with 18 samples.

Results

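Branched-chain amino acid breakdown is the mitochondrial route that turns leucine, isoleucine and valine into acetyl-CoA and succinyl-CoA. It was followed here as 10 genes, listed by name with earlier results of these data known: the transaminases Bcat1 and Bcat2, the keto acid dehydrogenase subunits Bckdha, Bckdhb and Dbt, the leucine branch enzymes Ivd, Mccc1 and Mccc2, the valine branch enzyme Hibadh, and Pcca of the propionyl-CoA step. All 10 are among the 25209 gene names listed, and 9 passed the filter on low values and were tested. Polyadenylated RNA came from 3T3-L1, an established mouse fibroblast line that becomes fat cells when induced, in 18 libraries with 3 in each of 6 groups. The groups were Control, the earlier and later stages of mitotic clonal expansion (MCE1 and MCE2, the divisions that induced cells pass through), and Day4, Day6 and Day8 after the differentiation stimuli. Induction began 2 days past confluence and used, per the labels' protocols, 10 µg/mL insulin, 0.25 µM dexamethasone (a glucocorticoid) and 0.5 mM IBMX (a phosphodiesterase inhibitor) for 48 h. The induced cells were then kept in 5 µg/mL insulin, with medium changed every 2 days. Day4, Day6 and Day8 thus lie after the 48 h of inducers, so stage and medium cannot be told apart there. All groups are 1 line in culture with no genetic change named. No hour is given for either MCE stage, and the labels leave unsaid if dividing had ceased in Control. Nor is it stated that the replicates came from different cultures. If they shared a culture, p-values would capture only the spread among the samples at hand.

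The first step of the route moves the amino group to oxoglutarate and can be run by a cytosolic enzyme (Bcat1) or a mitochondrial one (Bcat2). The second, irreversible step is run by a mitochondrial complex built of E1 (Bckdha and Bckdhb), E2 (Dbt) and a shared E3 (Dld), switched off by the kinase Bckdk and on by the phosphatase Ppm1k. Differentiating fat cells are known to take up the route strongly and to use its carbon for fatty acids.

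Values are TPM, a share of all transcripts corrected for gene length, so levels of different genes in a library can be set side by side. The number of reads behind a TPM is unknown. Library sums of TPM lay between 869497 and 880273. Across genes, which are not independent replicates, Pearson's r lay between 0.9899 and 0.9959 for libraries of 1 group and between 0.9266 and 0.9898 for those of different groups. Control replicate 1 lists 12 genes at another locus than the other 17 libraries. None of them is a member, and leaving that library out changed no member's call. The summed TPM of 8 fat cell markers was 134 to 147 in Control, 688 to 768 at MCE1, 3813 to 4165 at MCE2, 18653 to 19616 at Day4, 31550 to 33441 at Day6 and 26851 to 29828 at Day8. That of 7 fibroblast markers lay between 5099 and 11945, with members that went different ways: from Control to Day8, mean TPM went from 995.7 to 15.6 for Acta2, from 5403 to 2248 for Vim and from 301.9 to 131 for Thy1, but from 452.8 to 4831 for Col3a1 and from 1235 to 2681 for Col1a1. Of the macrophage markers, Adgre1, Ptprc and Itgam were at 0 throughout and the summed level of the 6 did not exceed 7.74. The sums did not exceed 1.05 for 4 endothelial, 0.993 for 4 liver and 9.71 for 5 skeletal muscle markers, of which Acta1 was the only 1 above 0.

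Of the 9 tested members, 8 were higher at Day8 than in Control and 1, Bcat1, was lower. Over all 12695 tested genes 31.7% were called higher and 39.7% lower. A call is an adjusted p under 0.05 in limma with Benjamini-Hochberg adjustment over all tested genes, and log2 fold changes come from log2(TPM + 1), a scale that shrinks changes at low TPM. The members' median log2 fold change was 2.88, beside -0.11 over all tested genes. The counts were the same at MCE2, Day4 and Day6 against Control (8 higher and 1 lower each), where 23.4, 29.7 and 30.2% of genes were called higher and 39.1, 39.3 and 39.4% lower. Median-ratio scaling moved the median of all genes by 0.17 at MCE2 and by 0.11 at Day8. It changed no member's call against Control. The F test over the 6 groups called all 9 tested members and 87.6% of all genes. In bulk RNA, fewer cells of a type and less RNA per cell cannot be told apart. The fat cell marker sum was higher at each later stage up to Day6. Of the 7 fibroblast markers, Acta2, Vim and Thy1 were lower in later groups than in Control, as Bcat1 was. The other members of that list, Col1a1, Col3a1, Pdgfra and Dlk1, had higher means at Day8 than in Control. Mean TPM went from 65.36 to 104.9 for Pdgfra and from 22.63 to 27.71 for Dlk1, whose libraries overlapped. In between, mean Col1a1 was below its Control level of 1235 TPM at MCE1 (616) and MCE2 (410.3). Dlk1 means were below Control at MCE2, Day4 and Day6, while those of Col3a1 and Pdgfra were above it in every later group. The part of these markers in the members' values was not tested.

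**Figure D1:**
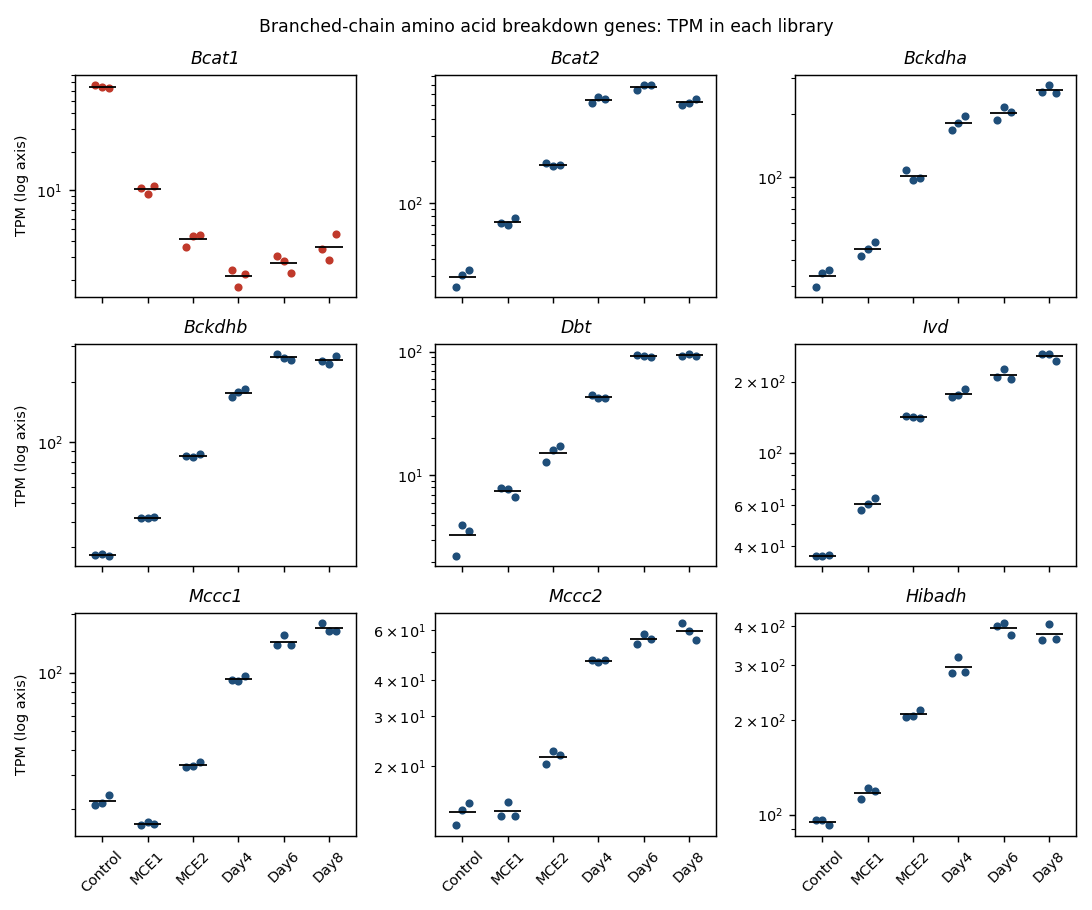
TPM (log axis, scaled to each gene) of the 9 tested members in every library of the 6 groups. Points are libraries and black lines are group means (n = 3). Bcat1, in red, ran from 62.7 to 67.1 TPM in Control down to 2.87 to 4.56 TPM at Day8, while the other 8 genes were higher at Day8 than in Control with no overlap, as 32.2% of all tested genes were.

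Bcat1 (mm9 chromosome 6, 144942355 to 145024677) stood at 67.1, 64.8 and 62.7 TPM in the 3 Control libraries and at 10.4, 9.39 and 10.9 TPM at MCE1. It was at 3.62, 4.38 and 4.49 TPM at MCE2, at 2.41, 1.77 and 2.23 at Day4, at 3.1, 2.83 and 2.28 at Day6 and at 3.51, 2.87 and 4.56 at Day8. Control was thus above every other library, and MCE1 above every later one. The Day8 mean was 17.8-fold below that of Control in TPM (log2 fold change -3.84, SE 0.14, limma adjusted p = 3.8e-13). By MCE2 the gene had gone through 95.7% of its Day8 log2 change. The Day4 mean was the lowest, and no neighbouring pair in the order Day4, Day6, Day8, MCE2 was called. Day8 was nevertheless called higher than Day4 (log2 fold change 0.56, SE 0.14, adjusted p = 0.0033), in a comparison added after the values were seen. For it, 23.2% of all genes were called higher and 21.6% lower, and a fit of the 6 libraries alone ended the call of Bcat1 (adjusted p = 0.056).

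Bcat2 (mm9 chromosome 7, 52825523 to 52845080) did the opposite. Its libraries read 25.2, 30.4 and 33.4 TPM in Control, 72.4, 69.5 and 78.4 at MCE1, and 192.5, 183.4 and 186.7 at MCE2. Levels were 515.7, 573.8 and 552.6 TPM at Day4, 641.7, 691.6 and 698.9 at Day6, and 500.7, 517.8 and 550.8 at Day8. The groups did not overlap except Day4 with Day8, whose means were not called different (limma adjusted p = 0.547). Bcat2 was 17.6-fold higher in TPM at Day8 than in Control (log2 fold change 4.10, SE 0.08, limma adjusted p = 3.9e-16). It peaked at Day6 and fell by 0.37 on the log2 scale to Day8 (SE 0.08, adjusted p = 0.00377).

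The 2 transaminase genes therefore changed places. Bcat1 made up 68.7 ± 3.77% (SD, n = 3) of their summed TPM in Control and 12.2 ± 0.351% at MCE1. Its share was 2.17 ± 0.285% at MCE2, 0.391 ± 0.079% at Day4, 0.404 ± 0.0779% at Day6 and 0.689 ± 0.135% at Day8. The sum of the 2 genes was 94.6 ± 2 TPM in Control and 83.7 ± 5.26 TPM at MCE1, then 191.7 ± 4.21 at MCE2, 549.5 ± 29.1 at Day4, 680.1 ± 30.8 at Day6 and 526.8 ± 26.1 at Day8. At MCE1 the share had thus moved by most of its course while the sum was slightly below that of Control, with 82.88, 78.92 and 89.35 TPM against 92.31, 95.25 and 96.13. The log2 ratio of Bcat1 to Bcat2, taken on TPM + 1, was 7.95 lower at Day8 than in Control. That ratio is 1 of 5 tested, and with 3 libraries against 3 a 2-sided exact permutation test cannot go below p = 0.1, the value it gave (0.125 adjusted over the 5).

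**Figure D2:**
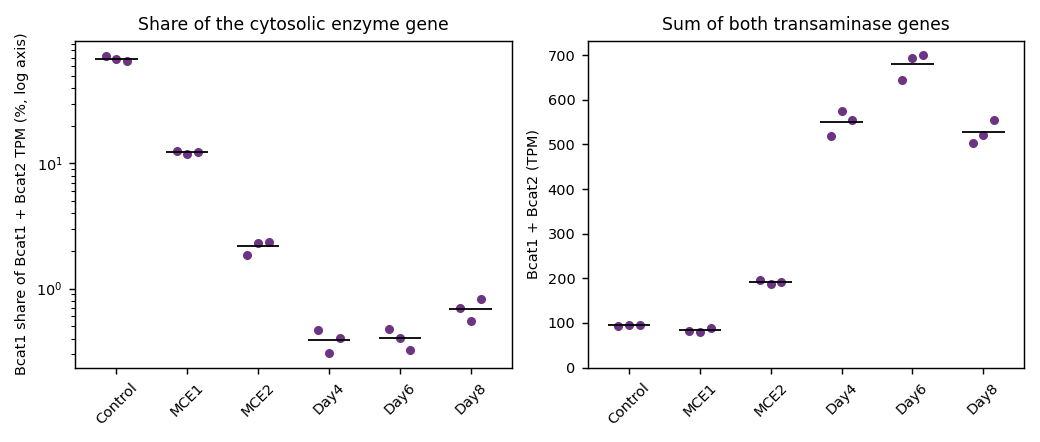
Left, the share of Bcat1 in the summed TPM of Bcat1 and Bcat2 (%, log axis), and right, that sum (TPM), in every library of the 6 groups. Points are libraries and lines are group means (n = 3). The share dropped from 65.3 to 72.7% in Control to 11.9 to 12.6% at MCE1, a stage at which the sum had not risen.

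The sequences before the start sites of these 2 genes are shown because the genes moved in opposite directions. They are the 250 bases before the first listed start site in RefSeq's GRCm38.p6 annotation, 5′ to 3′ on the gene's strand, with CCAAT or its reverse ATTGG in capitals. The Bcat1 window lies at chr6:145076158-145076407 on the minus strand and the Bcat2 window at chr7:45569903-45570152 on the plus strand.
Bcat1: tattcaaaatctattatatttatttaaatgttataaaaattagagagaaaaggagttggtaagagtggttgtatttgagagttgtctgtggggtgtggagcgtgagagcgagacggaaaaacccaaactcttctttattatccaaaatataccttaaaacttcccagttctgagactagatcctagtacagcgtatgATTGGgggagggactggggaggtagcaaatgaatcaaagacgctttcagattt
Bcat2: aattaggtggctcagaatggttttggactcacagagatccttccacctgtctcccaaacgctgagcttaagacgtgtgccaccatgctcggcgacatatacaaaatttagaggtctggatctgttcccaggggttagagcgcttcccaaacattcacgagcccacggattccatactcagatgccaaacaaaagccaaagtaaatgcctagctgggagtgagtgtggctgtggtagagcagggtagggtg
The first Bcat1 window has 37.6% G and C and that of Bcat2 50.4%, beside a median of 52.4% over 32536 windows of the same length. Both strands were searched for the CCAAT box, the GC box (GGGCGG), the E-box (CACGTG), the nuclear receptor motif AGGTCA and the TATA box (TATAAA). None of the 5 contains another. They were chosen after the windows had been seen, and a match is a description of letters, not a site. The first Bcat1 window holds CCAAT once, 53 bases before the start. It holds TATAAA once, near the end of the window farthest from the start, a motif found in 12.3% of all windows. The second Bcat1 window, before the other listed start site, has 56.4% G and C and holds AGGTCA once and none of the other 4. Neither Bcat2 window holds any of the 5.

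The genes of the keto acid dehydrogenase rose by unequal amounts. Bckdha (mm9 chromosome 7, 26414871 to 26443780), the E1 alpha subunit that the kinase phosphorylates, read 29.7, 34.4 and 35.9 TPM in Control and 257.3, 278.3 and 253.2 at Day8. In between it read 41.9, 45 and 48.5 TPM at MCE1, 108.3, 96.3 and 99.1 at MCE2, 168.0, 182.7 and 195.9 at Day4, and 188.6, 217.8 and 204.6 at Day6. Each group was above the one before it without overlap, except Day6, which overlapped Day4 and was not called different from it (adjusted p = 0.175). Day8 was 7.89-fold above Control in TPM (log2 fold change 2.95, SE 0.08, limma adjusted p = 2.48e-14).

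Bckdhb (mm9 chromosome 9, 83818744 to 84017847), the E1 beta subunit, read 27.3, 27.9 and 27.1 TPM in Control, 41.7, 41.8 and 42.3 at MCE1, and 85.2, 84 and 87.3 at MCE2. It reached 167.6, 178.1 and 183.6 TPM at Day4, 274.4, 263.4 and 255.5 at Day6, and 253.8, 245.9 and 267.7 at Day8. Day8 was 9.33-fold above Control in TPM (log2 fold change 3.175, SE 0.05, limma adjusted p = 1.32e-17). The first 5 groups did not overlap, and the difference of Day8 from Day6 was not called (log2 fold change -0.05, SE 0.05, adjusted p = 0.503). The 2 E1 genes stayed close in level: the ratio of Bckdha to Bckdhb TPM averaged 1.22 ± 0.121 in Control, 1.08 ± 0.0708 at MCE1, 1.18 ± 0.0753 at MCE2, 1.03 ± 0.0327 at Day4 and 1.03 ± 0.0939 at Day8 (SD, n = 3). Day6 had the lowest ratio, 0.772 ± 0.0741, below every library of the other groups. The Day8 minus Control difference of the log2 ratio, taken on TPM + 1, was -0.23, with an exact permutation p = 0.2 (0.2 adjusted over the 5 ratios).

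Dbt (mm9 chromosome 3, 116215988 to 116252899) encodes the E2 core to which E1, E3 and the kinase bind. It was the scarcest of the complex in every library: 2.23, 4.01 and 3.58 TPM in Control, 7.96, 7.73 and 6.7 at MCE1, and 12.8, 15.9 and 17.2 at MCE2. Levels then were 44.7, 42.1 and 42.5 TPM at Day4, 94.2, 92.7 and 90.2 at Day6, and 91.4, 95.5 and 92.4 at Day8. The rise from Control to Day8 was 28.4-fold in TPM (log2 fold change 4.49, SE 0.13, limma adjusted p = 4.34e-14), the highest log2 fold change among the members. Between Day4 and Day6 Dbt rose 2.14-fold (log2 fold change 1.08, SE 0.13, adjusted p = 1.82e-05), a step at which Bckdha was not called. The ratio of Dbt to Bckdha TPM went from 0.0972 ± 0.0208 in Control to 0.167 ± 0.0263 at MCE1, 0.152 ± 0.0298 at MCE2, 0.238 ± 0.0254 at Day4, 0.455 ± 0.039 at Day6 and 0.355 ± 0.011 at Day8. The Control and Day8 ratios did not overlap. The log2 ratio, taken on TPM + 1, was 1.54 higher at Day8 (exact permutation p = 0.1, the smallest possible, and 0.125 adjusted over the 5 ratios).

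Among the genes of the switch, RNA of the phosphatase changed more than that of the kinase. TPM do not show the activity of either enzyme. Ppm1k rose from 1.27, 1.27 and 1.51 TPM in Control to 10, 10.4 and 9.23 TPM at Day8 (log2 fold change 2.21, SE 0.13, limma adjusted p = 1.81e-10). Bckdk read 59.7, 56.4 and 57.6 TPM in Control and 57.4, 60.1 and 60.6 at Day8, ranges that overlap. Its log2 fold change of 0.04 at Day8 was not called (limma adjusted p = 0.532), but median-ratio scaling (0.16) and quantile normalization (0.13) called it higher, so the call, though not its sign, depended on the scaling. The ratio of Bckdk to Ppm1k TPM was 43.2 ± 4.51 in Control, 19.4 ± 1.98 at MCE1, 22.2 ± 1.12 at MCE2, 9.22 ± 1.62 at Day4, 7.07 ± 0.831 at Day6 and 6.03 ± 0.467 at Day8. The log2 ratio, taken on TPM + 1, changed by -2.18 from Control to Day8 (exact permutation p = 0.1, 0.125 adjusted). With a pseudocount of 0.1 it changed by -2.75. Ppm1k lay just above the filter of 1 TPM in Control, so the ratio there rests on a small value. Dld, the E3 subunit that other dehydrogenases share, rose from 135.8 to 137.6 TPM in Control to 397.2 to 446.1 TPM at Day8 (log2 fold change 1.62).

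**Figure D3:**
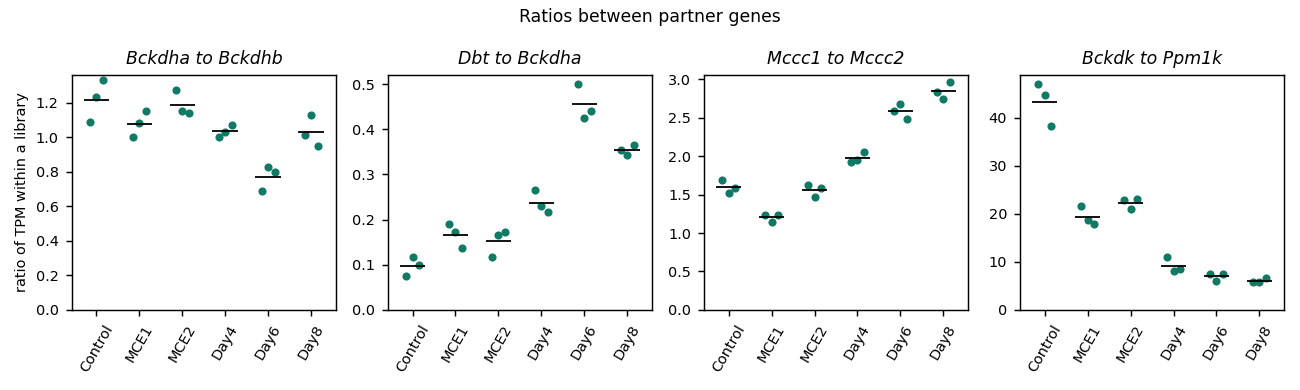
Ratio of TPM within each library for 4 pairs of partner genes (linear axes from 0, points are libraries, lines are group means, n = 3). Bckdha stayed near Bckdhb except at Day6 (0.772), Dbt gained on Bckdha up to Day6 (0.455), Mccc1 gained on Mccc2 from MCE1 (1.2) to Day8 (2.85), and the ratio of Bckdk to Ppm1k went from 43.2 to 6.03.

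The leucine branch was represented by 3 members. Ivd (mm9 chromosome 2, 118687730 to 118708645), the isovaleryl-CoA dehydrogenase, read 36.4, 36.6 and 36.8 TPM in Control, 57.2, 60.5 and 64 at MCE1, and 142.7, 141.8 and 140.4 at MCE2. It went on to 172.2, 175.5 and 185.5 TPM at Day4, 208.6, 226.5 and 204.3 at Day6, and 261.5, 261.6 and 244.7 at Day8. All 6 groups were separate and every step between neighbouring groups was called. The Day8 level was 6.99-fold that of Control (log2 fold change 2.77, SE 0.05, limma adjusted p = 2.13e-16), and 69.4% of the log2 change was reached by MCE2.

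Mccc1 (mm9 chromosome 3, 35858231 to 35899600), the biotin-carrying alpha subunit of methylcrotonyl-CoA carboxylase, first went down. It read 20.9, 21.4 and 23.7 TPM in Control and 16.5, 17.1 and 16.7 at MCE1, with no overlap (log2 fold change -0.37, SE 0.06, limma adjusted p = 0.000105). It then read 33, 33.2 and 34.9 TPM at MCE2, 91.2, 90.4 and 96.2 at Day4, 138.9, 155.6 and 138.4 at Day6, and 178.9, 163.3 and 163.6 at Day8. Every later group was above Control, and Day8 was 7.66-fold above it (log2 fold change 2.88, SE 0.06, adjusted p = 1.13e-15). By MCE2 Mccc1 had made 20.6% of its Day8 log2 change, the lowest share of the 9 members.

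Mccc2 (mm9 chromosome 13, 100718487 to 100785594), the beta subunit of the same enzyme, did not move at MCE1 by the test: 13.4, 15 and 13.4 TPM against 12.4, 14 and 14.9 in Control (log2 fold change 0.02, SE 0.08, limma adjusted p = 0.863). Quantile normalization called it higher there (0.18). It read 20.3 to 22.6 TPM at MCE2, 46.4 to 47.2 at Day4, 53.6 to 58.1 at Day6 and 55.1 to 63.2 at Day8, 4.30-fold above Control in means (log2 fold change 2.03, SE 0.08, adjusted p = 8.77e-13). The ratio of Mccc1 to Mccc2 TPM was 1.6 ± 0.0838 in Control, 1.2 ± 0.0559 at MCE1, 1.56 ± 0.0846 at MCE2, 1.98 ± 0.0654 at Day4, 2.58 ± 0.0997 at Day6 and 2.85 ± 0.116 at Day8. Control and Day8 did not overlap (exact permutation p = 0.1, 0.125 adjusted over the 5 ratios).

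The windows before the start sites of these 3 genes are shown because they hold repeated CCAAT letters, marked in capitals on either strand (ATTGG on the other). They lie at chr2:118861744-118861993 on the plus strand for Ivd, chr3:36000679-36000928 on the minus strand for Mccc1 and chr13:100015640-100015889 on the minus strand for Mccc2, in RefSeq's GRCm38.p6 annotation.
Ivd: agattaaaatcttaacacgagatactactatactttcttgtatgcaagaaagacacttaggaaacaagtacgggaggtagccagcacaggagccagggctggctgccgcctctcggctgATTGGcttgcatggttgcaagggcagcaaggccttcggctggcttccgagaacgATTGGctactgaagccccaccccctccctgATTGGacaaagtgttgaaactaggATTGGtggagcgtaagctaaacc
Mccc1: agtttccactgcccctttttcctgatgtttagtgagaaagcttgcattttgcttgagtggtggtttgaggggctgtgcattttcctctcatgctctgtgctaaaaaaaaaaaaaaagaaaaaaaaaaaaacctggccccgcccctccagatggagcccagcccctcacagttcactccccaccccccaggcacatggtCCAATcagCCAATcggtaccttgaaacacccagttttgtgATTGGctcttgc
Mccc2: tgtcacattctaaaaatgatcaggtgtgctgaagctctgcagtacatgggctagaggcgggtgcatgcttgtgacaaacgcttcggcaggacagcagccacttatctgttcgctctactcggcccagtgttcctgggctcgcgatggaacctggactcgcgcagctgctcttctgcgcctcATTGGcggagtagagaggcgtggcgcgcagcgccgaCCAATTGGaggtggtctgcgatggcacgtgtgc
Ivd holds 4 copies, which begin 131, 77, 47 and 23 bases before the start, and Mccc1 holds 3, at 52, 44 and 12 bases. Mccc2 holds 2 that do not overlap, at 69 and 33 bases, the second of which runs into a further copy on the other strand at 30 bases. Of all 32536 windows of the same length, 33.8% hold CCAAT at least once, 9.87% hold 2 or more copies that do not overlap and 2.66% hold 3 or more. The 3 windows were picked for their copies after being seen, so these shares are a description and not a test. Mccc2 also holds CACGTG once, a motif found in 6.04% of windows, and Mccc1 holds GGGCGG once, a motif found in 33.0%. RefSeq windows were matched for 9 of the 10 members, all but Dbt, with 13 start sites in all, and CCAAT stands in 8 of the 13 (61.5%). Bckdhb has 2 copies before its first start site and none before its second, Hibadh 1, and Bckdha none. Both windows of Pcca, which was not tested, hold 1 each. The first Bcat1 window holds 1, and the second and both Bcat2 windows none. Bcat1, Bcat2, Bckdhb and Pcca thus count with 2 windows each.

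Hibadh (mm9 chromosome 6, 52496224 to 52590294), which oxidises 3-hydroxyisobutyrate in the valine branch, was the most abundant member in Control, at 96, 95.9 and 92.3 TPM. It read 112.4, 121.3 and 119.1 TPM at MCE1, 205.3, 205.9 and 215.9 at MCE2, and 282.7, 319.7 and 285.8 at Day4. At Day6 it was at 402.2, 408.6 and 375.6 TPM and at Day8 at 362.6, 406.6 and 363.3, ranges that overlap. Day8 was 3.98-fold above Control, the lowest fold of the 8 that rose (log2 fold change 1.98, SE 0.06, limma adjusted p = 3.63e-14).

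Pcca (mm9 chromosome 14, 122883587 to 123289166), the biotin-carrying subunit of propionyl-CoA carboxylase, was listed at 0 in 17 of the 18 libraries and at 0.0385 TPM in Day4 replicate 3. It did not pass the filter and was not tested. Its partner Pccb was well above 0 in every library, at 15.5, 22.3 and 22.8 TPM in Control and 149.5, 136.7 and 138.3 at Day8 (log2 fold change 2.77, SE 0.12, limma adjusted p = 6.7e-12). A listed 0 can be a failed estimate, which was not tested here. No ratio of the pair can be given.

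The members did not move at the same pace. At MCE1, 6 members were called higher, 2 lower (Bcat1 and Mccc1) and Mccc2 was not called, where 22.0% of all genes were higher and 29.4% lower. The balance of all calls there depended on the scaling: 42.9% of called genes were higher as deposited and 54.3% after median-ratio scaling, and at MCE2 37.4% and 50.1%. At the step from MCE1 to MCE2, 8 members rose and Bcat1 fell (17.7% of all genes higher and 25.2% lower). The step from MCE2 to Day4 gave the same counts (29.6 and 22.0%), with a median of 1.03 over the members and 0.07 over all genes. From Day4 to Day6, 7 rose and none fell (14.5 and 11.2%), where Bcat1 and Bckdha were not called.

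From Day6 to Day8 the members parted. Bckdha, Ivd and Mccc1 rose, by 0.37, 0.26 and 0.22 on the log2 scale, Bcat2 fell by 0.37, and 5 were not called (10.1% of all genes higher and 11.6% lower). This step is the least firm. In a fit of its 6 libraries alone 2 members were called instead of 4, with Ivd and Mccc1 lost. The call of Mccc1 also ended without Day6 replicate 1 (0.198), Day6 replicate 3 (0.195) or Day8 replicate 1 (0.181), and Bcat1 was called higher without Day8 replicate 2 (0.43). At the step from Day4 to Day6, the call of Bcat2 ended without Day4 replicate 1 (0.27), and that of Mccc2 ended without any 1 of the 3 Day4 libraries or Day6 replicates 2 or 3 (0.22 to 0.25).

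By MCE2 the share of the Day8 log2 change that a member had made ran from 95.7% in Bcat1 through 69.4% in Ivd, 64.1% in Bcat2, 57.2% in Hibadh, 53.5% in Bckdha, 50.6% in Bckdhb and 43.4% in Dbt to 30.3% in Mccc2 and 20.6% in Mccc1. By Day6 all 9 members had made at least 87.5% of it. Over the 18 libraries, Pearson's r of log2(TPM + 1) among the 8 genes that rose was between 0.8947 (Ivd with Mccc1) and 0.9944 (Bckdhb with Hibadh) in 28 pairs. For Bcat1 with each of them it ran from -0.9243 (Bcat2) to -0.6949 (Mccc1). These are descriptions over libraries that share 6 group levels.

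**Figure D4:**
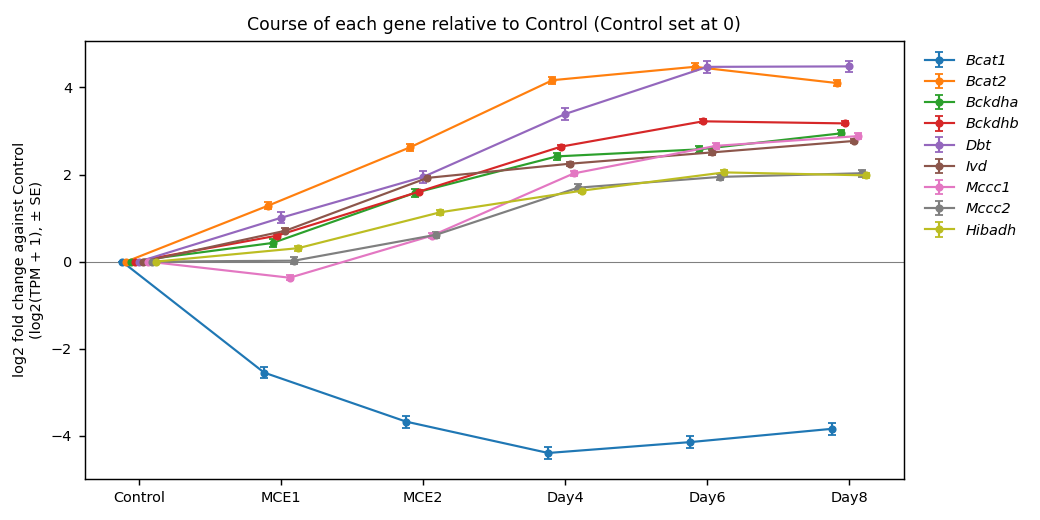
Log2 fold change of each tested member against Control, on the log2(TPM + 1) scale, by group, with SE from the limma fit as error bars (n = 3 per group, Control set at 0). Bcat2 and Dbt ended highest (4.10 and 4.49), Mccc1 dipped at MCE1 (-0.37), and Bcat1 fell by 2.55 at MCE1.

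The genes whose patterns over the 18 libraries were most like those of the lead members were found by Pearson's r. The search covered the tested genes other than the members, with predicted or unnamed gene models left out. For Bcat1 they were Plaur, the urokinase receptor (r = 0.9920, Spearman's rho 0.928), Cd109 (0.9855 and 0.835) and Tnfrsf12a (0.9837 and 0.835). Plaur averaged 107.6 ± 5.47 TPM in Control and 4.8 ± 0.342 at Day8. For Bcat2 they were the fatty acid carrier Fabp4 (0.9974 and 0.936), the triglyceride lipase gene Pnpla2 (0.9960 and 0.944) and Aldh6a1 (0.9940 and 0.866), which acts further down the valine branch. Pnpla2 averaged 12.1 ± 0.441 TPM in Control, 795.5 ± 76.3 at Day6 and 679.2 ± 18.6 at Day8, with the same peak at Day6 as Bcat2. For Bckdha they were Pla2g12a (0.9958 and 0.979), the secreted protease Cfd (0.9941 and 0.975) and Coq8a (0.9939 and 0.983), a gene of coenzyme Q synthesis.

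The other genes of the route moved largely with the members. Of 17 tested, 16 were higher at Day8 than in Control and none was lower (31.7 and 39.7% over all genes), with a median log2 fold change of 1.77. Bckdk was the 1 not called. Aldh6a1, the methylmalonate semialdehyde dehydrogenase that takes over from Hibadh, changed most, from 8.14, 9.84 and 11.3 TPM in Control to 259.2, 316.3 and 259.4 at Day8 (log2 fold change 4.70, SE 0.10, limma adjusted p = 6.27e-16). Hibch, which makes the substrate of Hibadh, rose by 2.77 on the log2 scale. In the leucine branch Auh, the hydratase after Mccc1 and Mccc2, rose by 2.28. Acad8 (0.71) and Hsd17b10 (0.69) had the lowest called changes. At MCE1, 12 of the 17 were higher and 1, Bckdk, was lower (22.0 and 29.4% over all genes). The call of Bckdk ended under both scalings (-0.02 and -0.11) and without Control replicate 1, Control replicate 3 or MCE1 replicate 1 (-0.14 to -0.11).

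For comparison, the related pyruvate and oxoglutarate dehydrogenase genes with their switches (13 tested) had 10 higher and 1 lower at Day8 (31.7 and 39.7% over all genes), with a median of 1.18. Pdhb rose by 2.76 while Bckdhb, its counterpart, rose by 3.175, and Pdha1 rose by 0.58 while Bckdha rose by 2.95. In the citrate cycle, which takes up the products of the route, all 14 genes were higher, with a median of 1.34 and the lowest value, 0.22, in Suclg2. The medians of these lists are descriptions and were not tested against each other.

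**Figure D5:**
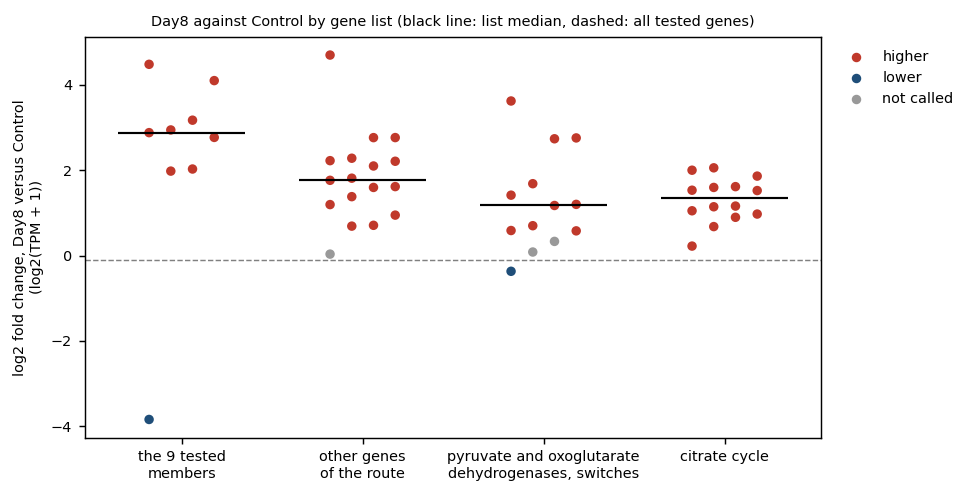
Log2 fold change at Day8 against Control (log2(TPM + 1)) of each gene in 4 lists, coloured by the limma call, with list medians as black lines and the median of all tested genes dashed. The medians were 2.88 for the members, 1.77 for the other genes of the route, 1.18 for the sister dehydrogenases and 1.34 for the citrate cycle, beside -0.11 for all genes.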

How the data were processed

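Gene expression in 18 libraries was deposited by the authors as 1 table of TPM per gene for each library, with gene positions. Per the submitters' processing notes, FastQC, cutadapt, HISAT2 and StringTie were used with the mm9 build, with no versions. The annotation is not given in the sources used here. TPM keep no read depth, so precision comes from the spread between replicates. Per the labels' protocols a poly(A) kit was used, and the library kit named there does not mark strand, so reads of a gene and of an antisense partner cannot be told apart.

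Groups came from sample titles. Genes listed at another locus in 1 library (12) were left out. The 12695 genes that reached 1 TPM in 3 or more libraries were fitted as log2(TPM + 1) by limma (version 3.58.1, R 4.3.3). The model held a mean for each group over all libraries, with trended and robust variances (12 residual and a median of 3.18 prior degrees of freedom) and Benjamini-Hochberg adjustment over all tested genes. The comparisons were each group against Control and each step between neighbours, plus an F test. The other pairs of groups were added after the values were seen, to order the levels. SEs are those of the fit and SDs are over libraries. Ratios of 2 genes were tested by 2-sided exact permutation of the log2 ratio of TPM + 1, while the ratios printed by group are of TPM alone. Their p-values were adjusted by Benjamini-Hochberg over the ratios tested (scipy 1.17.1). Tables were made with Python 3.11.15 and pandas 2.3.3, figures with matplotlib 3.10.9, and the fit was tested on simulated data. Promoter windows came from RefSeq (GRCm38.p6), and no coordinates were converted between builds.

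The members, the other gene lists and the marker lists were chosen with earlier results of these data known. All members could be named, as could genes of the lists for the rest of the route, cofactors, carriers, nitrogen handling, sister dehydrogenases, citrate cycle and regulators, and the 3 genes with the highest r to Bcat1, Bcat2 and Bckdha. Alternatives were a pseudocount of 0.1, no filter, a filter of 5 TPM, median-ratio scaling, quantile normalization, a fit of only the 6 libraries of a comparison, a block for the replicate number, and leaving out each library in turn. For named values outside the planned comparisons of members, the same alternatives were chosen after seeing the data. Some results for genes of these lists are not reported here.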

Additional observations from a re-analysis of the deposited data

Results flagged for a closer look

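Mccc1 moved in opposite directions against Control at MCE1 and at every later group, without overlap of its libraries. Its MCE1 level was below Control by 0.37 on the log2 scale, in all 3 libraries. The difference between the effects at MCE2 and MCE1 was 0.97 (SE 0.06, limma adjusted p = 4.42e-09), which equals the direct comparison of MCE2 with MCE1 because both share the Control libraries. The differences to MCE1 were 2.40 at Day4, 3.03 at Day6 and 3.25 at Day8 (SE 0.06 each, limma adjusted p = 2.99e-14, 1.53e-15 and 4.35e-16). The fall at MCE1 kept its call under all alternatives run, from -0.25 with quantile normalization to -0.41 without Control replicate 1.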

How the results depend on the processing

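Of 1053 alternative values for single members in the planned comparisons, 1034 kept direction and side of the threshold, 11 lost the call, 2 gained it and 6 changed sign. Of 390 for the other named values, whose alternatives were chosen after seeing the data, the numbers were 377, 11, 2 and none. The causes were not tested. The F test and the comparisons of MCE2, Day4, Day6 and Day8 with Control, of MCE2 with MCE1 and of Day4 with MCE2 called 9 members under every alternative run. Without 1 library the count was 8 for MCE1 against Control, 5 to 7 for Day6 against Day4 and 3 to 5 for Day8 against Day6, for which the fit of 6 libraries gave 2. Same-numbered replicates did not deviate together across genes (correlations -0.074 to 0.093). This cannot show that the samples were unpaired, only that no strong shared deviation was seen. With the replicate number as a block, 9 members were called at Day8 against Control and no member's call changed in any planned comparison. The values that changed sign were not called in the reported fit: Dbt at Day8 against Day6 (-0.009 with median-ratio scaling, -0.002 with quantile normalization, -0.007 to 0.025 without 1 library) and Mccc2 at MCE1 against Control (-0.050 to 0.075 without 1 library). The ratio of Pcca to Pccb was not run because Pcca is listed at 0. What counting error limits cannot be read from TPM.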

Other observations

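The cofactors of the route rose in part. Biotin is the cofactor of the carboxylases, lipoate of the E2 subunit and thiamine diphosphate of E1. Of 9 genes that supply these and cobalamin, 7 were higher at Day8 than in Control and none was lower (31.7 and 39.7% of all genes), with a median log2 fold change of 0.78. Lias, the lipoate synthase, rose by 1.75 and Hlcs, which attaches biotin to the carboxylases, by 1.27. Hlcs was already higher at MCE1 (0.88), where Mccc1 was lower.

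Genes that bring in the amino acids or handle the nitrogen were read against the shares of all genes at Day8, 31.7% higher and 39.7% lower. Of 5 tested carriers, 2 were higher and 1 lower. The cell surface carrier Slc7a5 stood at 114.2, 105.3 and 106.3 TPM in Control and 52.9, 48.5 and 55.1 at MCE1. At MCE2 it read 133.2, 127.8 and 137.8 TPM, above every Control library, and at Day8 76.0, 83.6 and 71.5. Slc7a5 was called lower than Control at MCE1 and at Day8. The mitochondrial carrier Slc25a44 was called higher at Day8 (0.47, SE 0.20, limma adjusted p = 0.0412), a call that ended with no filter (0.47), in a fit of the 6 libraries alone, and without Control replicate 2 (0.35), Control replicate 3 (0.52) or Day8 replicate 2 (0.27). Of 9 genes for transaminases and glutamate enzymes, 3 were higher and 4 lower at Day8. Gpt, an alanine transaminase, rose from 5.22, 5.38 and 5.32 TPM to 241.7, 205.8 and 223.2 TPM (log2 fold change 5.15, SE 0.08), while Got2, the mitochondrial aspartate transaminase, fell by 1.11 on the log2 scale.

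Among 6 tested regulators tied to the route by earlier work, 4 were higher and 1 lower at Day8 (31.7 and 39.7% of all genes). Klf15, a transcription factor known to act on genes of amino acid breakdown, read 0 in each Control library, 0.308, 0.333 and 0.179 TPM at MCE1, and 60.1, 68.8 and 65.2 TPM at Day8. Myc, known to act on Bcat1 in other cells, was higher at MCE2 than in Control (1.39) and lower at Day8 (-1.36). Bcat1 was lower than in Control at MCE2 and Day8. Whether any of the 6 regulators acts on the members in these cells was not tested. Pparg was not called at Day8 (1.06, SE 0.61, limma adjusted p = 0.134), with libraries at 35.4, 183.9 and 45.2 TPM.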
